A study of Mus musculus with 32 samples.

Results

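Olfactory (Olfr) and vomeronasal (Vmn1r and Vmn2r) receptor genes were taken as a reference of genes that are barely transcribed in kidney, liver, lung and spleen. The members were all genes whose GENCODE M21 symbol, on the mm10 build, begins with Olfr, Vmn1r or Vmn2r. The files list 920 of them among 25058 genes, that is 730 Olfr, 102 Vmn1r and 88 Vmn2r genes, of which 776 are protein-coding and 144 are pseudogenes. The annotation holds 1974 genes with such symbols. Wild-type C57BL/6J female mice, 6 or 7 months old, received 1 intraperitoneal injection of cisplatin at 10 mg/kg at zeitgeber time (ZT) 1 and were killed at ZT5, and control mice received saline. The labels also carry a time after treatment of 2 h, which differs from the interval between those ZT times. There were 32 libraries, with 2 cisplatin libraries per organ in Damage-seq, 2 in XR-seq and, in RNA-seq, 2 control and 2 cisplatin libraries per organ. Among these libraries neither DNA assay had saline ones, so damage and repair reads have no untreated background here. The paper does describe a Damage-seq control group, whose reads showed no GG enrichment. The paper calls the replicates biological, while the labels do not tie a library to a mouse, and p-values measure only the spread between these libraries.

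Olfactory and vomeronasal receptors are G protein-coupled receptors that detect odorants and pheromones in the nose. Each sensory neuron expresses very few of them, and in most other cells the genes lie in large silent clusters. Most cisplatin adducts are crosslinks between neighbouring guanines on 1 DNA strand, so the number of GG dinucleotides sets how many such adducts a sequence can hold. Nucleotide excision repair removes them. In transcription-coupled repair, a stalled RNA polymerase recruits the repair factors to the transcribed strand (TS), so that the TS is repaired faster than the non-transcribed strand (NTS). Damage-seq counts where adducts are, and XR-seq counts the excised oligonucleotides. In a gene without transcription, the reads per GG on TS and NTS have no such source of a difference.

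The receptor genes are alike in sequence, which bears on which reads can be placed. The following stretches of 240 bases of coding sequence are shown for some of the members named below (RefSeq sequence of GRCm38, the mm10 assembly). Each is printed 5′ to 3′ on the coding strand, which is the NTS. GG is in capitals where an adduct can form on the NTS and CC in capitals where it can form on the TS. Olfr1033 (chr2:86041317-86041556, plus strand) had most RNA, Olfr543 (chr7:102477629-102477868, minus strand) had XR-seq reads mainly on the NTS, and Vmn1r4 (chr6:56956513-56956752, plus strand) had them mainly on the TS. All 3 stretches start at the first codon of a single coding exon, and the coding sequences are 930, 1008 and 891 bases long. Vmn2r84 (chr10:130386468-130386707, minus strand) had XR-seq reads in spleen, and its stretch lies in the longest of 6 coding exons.
Olfr1033: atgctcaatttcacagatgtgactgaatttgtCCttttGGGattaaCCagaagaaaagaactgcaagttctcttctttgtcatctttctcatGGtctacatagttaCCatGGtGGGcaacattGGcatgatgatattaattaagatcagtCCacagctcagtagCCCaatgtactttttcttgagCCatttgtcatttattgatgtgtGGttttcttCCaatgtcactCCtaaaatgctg
Olfr543: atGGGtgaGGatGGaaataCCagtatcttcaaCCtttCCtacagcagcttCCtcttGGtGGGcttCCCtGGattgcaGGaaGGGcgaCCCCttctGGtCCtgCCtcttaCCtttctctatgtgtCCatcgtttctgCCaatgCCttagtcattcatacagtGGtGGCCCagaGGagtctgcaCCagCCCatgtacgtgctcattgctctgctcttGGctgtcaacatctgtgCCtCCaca
Vmn1r4: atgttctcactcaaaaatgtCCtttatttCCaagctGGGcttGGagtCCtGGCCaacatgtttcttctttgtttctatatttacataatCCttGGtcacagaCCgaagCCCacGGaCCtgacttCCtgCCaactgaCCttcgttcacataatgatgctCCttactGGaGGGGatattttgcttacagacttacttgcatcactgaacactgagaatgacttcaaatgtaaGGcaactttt
Vmn2r84: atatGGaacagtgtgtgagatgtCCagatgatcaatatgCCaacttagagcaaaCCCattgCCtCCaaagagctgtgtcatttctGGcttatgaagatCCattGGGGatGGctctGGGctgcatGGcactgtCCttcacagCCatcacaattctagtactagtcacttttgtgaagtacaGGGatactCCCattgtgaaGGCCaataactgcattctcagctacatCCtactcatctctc
Counting overlapping pairs, the Olfr543 stretch holds 22 GG on the TS but 16 on the NTS, compared with 9 and 8 in the Olfr1033 stretch.

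Some fragments of the length that XR-seq reads occur in many members. The following 27-base coding fragments, each with a GG in capitals that ends 6 bases before the 3′ end, were the ones shared by most members of the Vmn1r and the Vmn2r family.
Vmn1r: ttctttgtggtcatgtactGGgtggac
Vmn2r: aaaggttgttatcatttatGGtgaaat
The Vmn1r fragment is found in 11 of 77 Vmn1r genes with a coding sequence, such as Vmn1r12 (chr6:57159649-57159675, plus strand). The Vmn2r fragment is in 11 of 56 Vmn2r genes, such as Vmn2r-ps159 (chr4:156334219-156334245, plus strand). Over the whole gene bodies, 69.7% of the members' GG lay in a 27-base sequence that occurs once in the genome, against 88.2% in a sample of GG in the other genes. The share was 77.9% for Olfr, 68.7% for Vmn1r and 52.0% for Vmn2r genes. The authors kept only reads of mapping quality above 20, so levels are also given per GG in such unique sequences.

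The members were shorter and poorer in G and C than other genes. The median length was 6166 bp for Olfr, 7788.5 bp for Vmn1r and 24691 bp for Vmn2r genes, and the median GC content of all members was 37.8%, against 45.9% in the other genes. They lay on 18 chromosomes, with 205 on chromosome 7 and 154 on chromosome 2. Of the 920, 803 overlapped no other annotated gene. The Damage-seq libraries held 1571167 to 6441367 reads on genes, the XR-seq libraries 10658675 to 59779770 and the RNA-seq libraries 15612743 to 162268216. Each organ expressed its markers: the lowest of 5 kidney markers was at 96.3 RPKM (reads per kilobase of exon, scaled to sequencing depth) in kidney, the lowest of 5 liver markers at 736 in liver, the lowest of 5 lung markers at 212 in lung and the lowest of 5 spleen markers at 22.9 in spleen.

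3 XR-seq libraries stood apart before any comparison. In replicate 1 of kidney, lung and spleen, only 77, 173 and 151 members had a read, against 394 to 534 in the other 5 XR-seq libraries. Where a member had reads on a strand in these 3 libraries, the median was 31, 16 and 8 reads, against 2 to 5 in the others. In these libraries the reads of the members thus fell on few genes in large groups. The counts of members called and the summed ratio are given with and without these libraries. What set them apart was not tested.

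Nearly every receptor gene carried measurable cisplatin damage. Over the 8 Damage-seq libraries, 863 of 920 members had at least 20 reads, 4 had none, and the median was 139 reads. The members took 0.373 to 0.636% of the reads on genes. Per GG, their reads were 0.628 and 0.749 times those of all other genes in the kidney libraries, 1.07 and 0.956 times in liver, 0.946 and 0.888 times in lung and 0.938 and 0.873 times in spleen. Set beside other protein-coding genes under 0.1 RPKM in the same organ, hereafter silent genes, the ratio was 0.722 to 0.963. Olfr genes were at 0.823 to 1.07 times the silent genes, Vmn1r at 0.705 to 0.935 and Vmn2r at 0.503 to 0.734. In each of the 8 libraries Olfr genes were above Vmn1r genes and Vmn1r above Vmn2r. When only GG in sequences that occur once were counted, the Vmn2r range was 0.651 to 0.961 and the order of the families stayed the same in every library. Among the 918 members with at least 20 GG, the number of reads per GG over all libraries had a median of 0.267, with 0.161 and 0.348 at the 10th and 90th percentiles. The pseudogene Vmn2r-ps126 (chromosome 17), chosen after its values were seen, stood apart at 8.63 reads per GG, and the next member, Vmn2r-ps20, had 0.907. Its reads were 652 (TS) and 625 (NTS) and came from every organ, with 160 and 173 in kidney libraries, 192 and 106 in liver, 66 and 85 in spleen and 226 and 269 in lung.

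**Figure D1:**
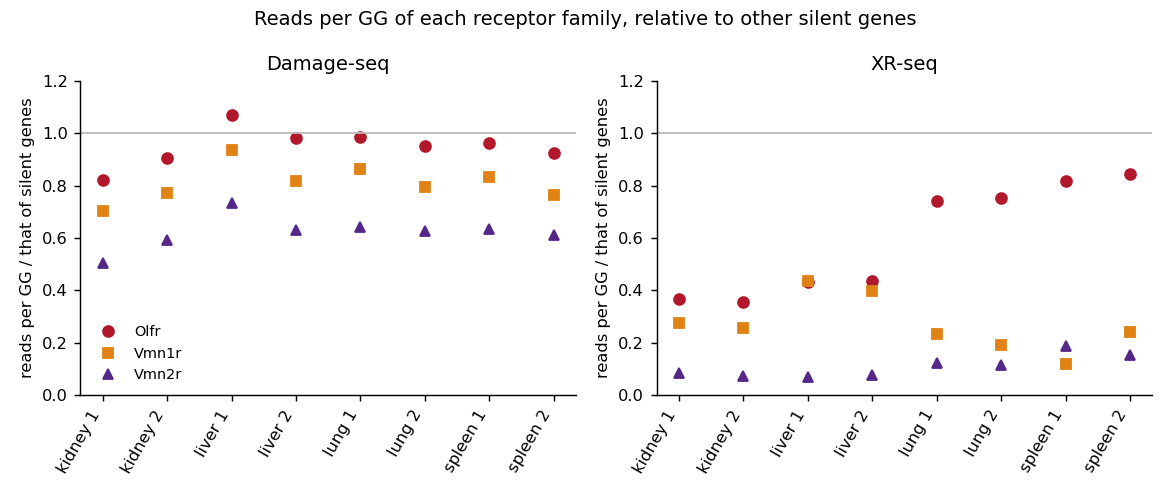
Reads per GG of Olfr, Vmn1r and Vmn2r genes divided by those of silent genes (other protein-coding genes under 0.1 RPKM in the organ) in each library, Damage-seq on the left and XR-seq on the right, with organ and replicate on the horizontal axis and a line at 1. Damage levels of Olfr genes sit between 0.823 and 1.07, while XR-seq levels of all 3 families sit below 1 in every library.

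The strands of the receptor genes carried nearly equal damage. Summed over members, TS over NTS reads per GG in Damage-seq was 0.985 and 0.949 in kidney libraries, 0.908 and 0.951 in liver, 0.951 and 0.987 in spleen and 0.941 and 0.920 in lung. The 95% intervals, which here and below cover counting error only, included 1 in kidney replicate 1 and spleen replicate 2 and lay below 1 in the other 6 libraries. Silent genes were at 0.984 to 1.02, and genes of at least 1 RPKM at 0.545 to 0.831. The members thus lay between silent and expressed genes in every library, and close to the silent ones. The departure from 1 was smaller without the division by GG: the members hold 1.03 times as many GG on the TS as on the NTS, and the plain ratio of reads was 0.935 to 1.02.

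Gene by gene, few members passed the strand test of Damage-seq. The test, edgeR's quasi-likelihood test with Benjamini-Hochberg adjustment over all genes, called 41 of 861 members tested (4.76%), against 39.2% of all genes. The TS was higher in 13 (all genes: 2.62%) and lower in 28 (all genes: 36.5%). The median log2 TS/NTS was -0.09 over members, -0.00 over protein-coding genes silent in all organs and -0.27 over all genes tested. DESeq2 called 11 members, and leaving out kidney replicate 1 or liver replicate 1 left 22 or 25. The difference of the strand ratio between organs was called in 1 member, Olfr1043, against 6.47% of all genes.

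Among the members called, those with the largest fitted log2 TS/NTS were Olfr142, Olfr659, Olfr1309 and Olfr1352, and those with the smallest were the pseudogene Olfr471, Vmn1r176, Olfr564 and Olfr1150-ps1. Olfr659 had 19, 16, 13, 11, 28, 32, 6 and 13 TS reads in kidney, liver, lung and spleen libraries in turn, against 12, 15, 16, 7, 16, 12, 3 and 2 NTS reads. Its TS was the higher strand in 7 of 8 libraries, with a log2 TS/NTS of 0.90 ± 0.28 (SE, adjusted p = 0.0051). Olfr142 was at 1.08 ± 0.39 (adjusted p = 0.0157). Olfr471 had only 8 TS and 20 NTS reads in all, so its log2 value of -2.90 ± 1.09 (adjusted p = 0.0226) rests on few reads. All 8 had under 20 XR-seq reads.

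Relative to other genes, these genes carried fewer damage reads in kidney than in the other organs. In the organ test of Damage-seq, 179 of 861 members differed between organs (20.8%), close to the 23% of all genes. Kidney against the mean of the other 3 organs gave a different picture from all genes: 246 members were lower (28.6%, all genes: 12.3%) and 0 were higher (all genes: 17%). The median log2 difference of the members was -0.64, against -0.00 over all genes tested and -0.28 over protein-coding genes silent in all organs, of which 23.1% were lower and 70 were higher. Of the Vmn2r genes, 58.4% were lower, against 25.3% of the Olfr genes, but their median differences were close (-0.67 and -0.63) and Vmn2r genes had more Damage-seq reads (median 320.5, Olfr: 136). In liver, 14 members were higher (1.63%, all genes: 0.975%), a number that ran from 0 without liver replicate 1 to 29 without lung replicate 1. The kidney count was 31 without kidney replicate 1, 137 without liver replicate 1 and 134 with library sizes in place of TMM (trimmed mean of M-values) scaling. Libraries of 1 organ differed too, since the members' level against all other genes was 0.628 and 0.749 in the 2 kidney libraries. Olfr78, a receptor of short-chain fatty acids known from kidney and vessels, had 75 and 69 Damage-seq reads in kidney, 93 and 62 in liver, 27 and 35 in spleen and 107 and 120 in lung, libraries of unequal depth, and differed between organs (adjusted p = 0.000188).

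Excision repair of the receptor genes was low. XR-seq reads per GG of the members were 2.44 to 4.21% of those of all other genes, and 1.42 to 2.35% of those of genes of at least 1 RPKM. They were also below other silent genes, at 0.278 and 0.266 times in kidney, 0.328 and 0.330 in liver, 0.573 and 0.592 in spleen and 0.519 and 0.519 in lung. These silent genes are a different set in each organ. Against protein-coding genes silent in all organs, the members were at 0.355 and 0.339 times in kidney, 0.575 and 0.571 in liver, 0.686 and 0.701 in spleen and 0.643 and 0.642 in lung. Against all other genes, the liver libraries (3.52 and 4.20%) were above the lung libraries (3.09 and 3.18%), so the order of the organs depended on the reference. Per GG in sequences that occur once, the members were at 0.325 to 0.723 times the silent genes. Over all GG, Vmn2r genes were at 0.0671 to 0.186 times the silent genes. They were the lowest family in every library except spleen replicate 1, where Vmn1r genes were at 0.118. Olfr genes reached 0.844 in spleen replicate 2. Per GG in sequences that occur once, Vmn2r genes were at 0.112 to 0.304 times and Olfr genes reached 0.923. Of 920 members, 144 had no XR-seq read in any of the 8 libraries, which allows up to 3 reads, and 301 had at least 20. Of the 863 members with at least 20 Damage-seq reads, 569 had fewer than 20 XR-seq reads. The distribution was uneven: Olfr56 alone held 33.0% of the members' XR-seq reads, the 10 highest members held 47.7% and the 100 highest 80.5%, while in Damage-seq the 100 highest held 35.1%.

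Olfr56 (chromosome 11, annotated over 156499 bp) overlaps Ifi47, an interferon-inducible GTPase gene on the same strand, and 9 genes on the opposite strand, among them the interferon-inducible Tgtp1 and Tgtp2. It had 14902 TS and 4555 NTS reads in XR-seq. Lung libraries held 4770 and 3453 of them, liver 3044 and 2933, spleen 973 and 3393 and kidney 317 and 574. The receptor gene Olfr1396, which overlaps it on the opposite strand, had 94 TS and 708 NTS reads (log2 TS/NTS -3.02 ± 0.66, adjusted p = 0.00299), so its reads lay mainly on the same DNA strand. Reads of Olfr56 cannot be told apart from those of the genes it overlaps, and it was longer than the limit of 100000 bp for the strand test.

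Summed over members, XR-seq did not show a stable strand ratio. TS over NTS reads per GG was 1.02 and 0.863 in kidney libraries, 1.28 and 1.31 in liver, 1.31 and 1.07 in spleen and 1.31 and 1.25 in lung. Silent genes were at 0.920 to 1.13 and genes of at least 1 RPKM at 6.67 to 12.2 in the same libraries. Without Olfr56 the members were at 0.560 to 1.02, and the 803 members that overlap no other gene were at 0.577 to 0.940, below 1 in all 8 libraries. Leaving out this 1 member turned the sum from above to below 1 in 6 of the 8 libraries, and not in kidney replicate 2 or liver replicate 2. Without the 3 clumped libraries the sum ran over the same range, 0.863 to 1.31, with a median of 1.25.

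**Figure D2:**
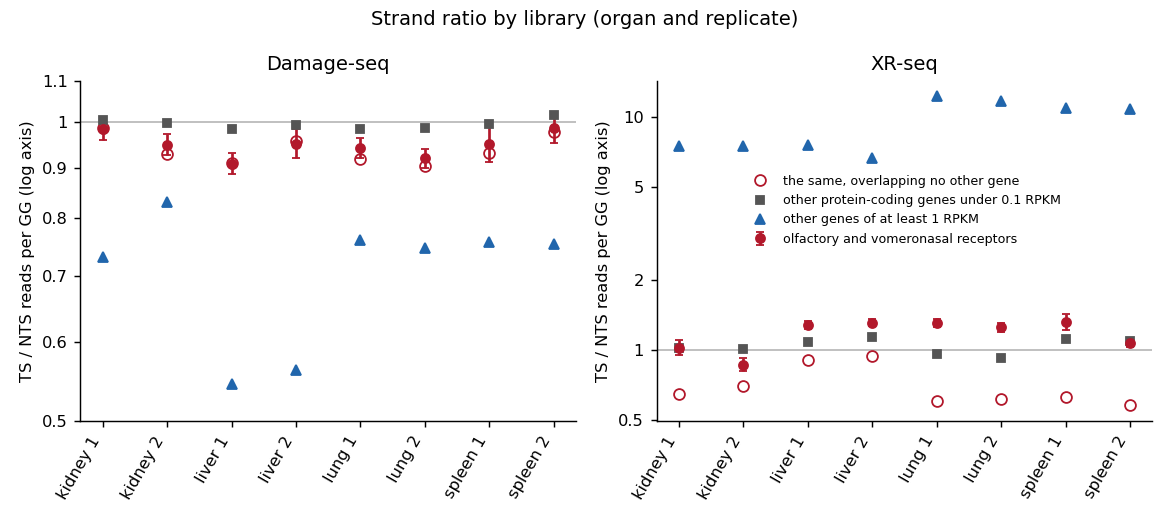
TS over NTS reads per GG (log axis) in each library, for all receptor genes (filled circles with 95% counting intervals), receptor genes that overlap no other gene (open circles), silent genes (squares) and genes of at least 1 RPKM (triangles). In Damage-seq the receptor genes sit at 0.908 to 0.987 beside silent genes, and in XR-seq they sit at 0.863 to 1.31, against 6.67 to 12.2 for expressed genes.

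Single members, in contrast, had strongly unequal strands in XR-seq. The strand test called 45 of 299 members tested (15.1%), against 69.6% of all genes. The TS was higher in 11 (3.68%, all genes: 59.4%) and lower in 34 (11.4%, all genes: 10.2%). Of the 299, 148 had no usable standard error, and the test could hardly call these. Without the 3 clumped libraries the test called 58 members, 17 with a higher and 41 with a lower TS. Leaving out kidney replicate 2 or liver replicate 2 left 25 or 29. The difference of the strand ratio between organs was called in 0 members (all genes: 16.7%), with 1 member at an unadjusted p under 0.05.

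Olfr1033, the member with most RNA, was among those with a higher TS. Its XR-seq reads on the TS were 33 and 29 in kidney libraries, 574 and 537 in liver, 38 and 66 in spleen and 146 and 80 in lung. On the NTS there were, in the same order, 0 and 2, 18 and 14, 0 and 1, and 0 and 6 reads. Every library had more reads on the TS, and the ratio per GG was 36.3 (95% interval 26.6 to 50.8), with a log2 TS/NTS of 5.57 ± 0.91 (adjusted p = 0.000316). Liver was higher than the other organs by 2.74 on the log2 scale (adjusted p = 2.83e-05). Its damage leaned the other way, with 197 TS and 249 NTS reads in Damage-seq and a log2 TS/NTS of -0.50 ± 0.19 (adjusted p = 0.0252). Damage reads on TS and NTS were 17 and 45 in liver replicate 1 and 9 and 21 in liver replicate 2, but 31 and 21 in kidney replicate 1. The neighbouring Olfr1034, on the same strand, had 182 TS and 12 NTS reads in XR-seq (log2 TS/NTS 4.33 ± 1.48, adjusted p = 0.0319). The nearest gene of at least 1 RPKM outside the families lay 948 kb from Olfr1033 in liver.

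Several other members with a higher TS lay close to an expressed gene on the same strand. Olfr920 had 515 TS and 4 NTS reads, with 0 and 44 TS reads in kidney, 98 and 61 in liver, 9 and 67 in spleen and 112 and 124 in lung (log2 TS/NTS 7.27 ± 1.59, adjusted p = 0.00571). It lies 8.96 kb beyond the 3′ end of Vwa5a. Olfr267, 11.2 kb beyond the 3′ end of Ecpas, a gene for a proteasome adaptor, had 616 TS and 10 NTS reads (7.05 ± 1.08, adjusted p = 0.000545). Olfr1393, known from the proximal tubule of the kidney, lies 15.3 kb beyond the 3′ end of the glycosylation gene Mgat1 and had 379 TS and 19 NTS reads (5.89 ± 1.48, adjusted p = 0.00816). The pseudogene Olfr755-ps1 lies 2.16 kb beyond H2-M3, which encodes a class Ib antigen-presenting molecule, and had 561 TS and 17 NTS reads (7.31 ± 1.27, adjusted p = 0.00189). Vmn1r4 was placed differently, since Nt5c3, a nucleotidase gene on the opposite strand, begins 0.083 kb from it. Vmn1r4 had 1595 TS and 55 NTS reads, with TS reads of 191 and 99 in kidney libraries, 459 and 428 in liver, 15 and 121 in spleen and 183 and 99 in lung (4.79 ± 1.16, adjusted p = 0.00411).

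Several members with a lower TS lay on the strand opposite to an expressed neighbour. Olfr543, Olfr544 and Olfr545 follow each other 6.81, 12.3 and 21.7 kb beyond the 3′ end of Rrm1, which encodes the large subunit of ribonucleotide reductase. Olfr544 is a receptor of azelaic acid known outside the nose, while Olfr543 and Olfr545 were chosen after their values were seen. Olfr543 had 0 and 47 NTS reads in kidney, 109 and 66 in liver, 48 and 119 in spleen and 278 and 177 in lung, and 51 TS reads in all. Its log2 TS/NTS was -4.60 ± 1.02 (adjusted p = 0.0032), and that of Olfr544 was -5.71 ± 1.11 (adjusted p = 0.00209). There were 844 NTS reads on Olfr543, 378 on Olfr544 and 306 on Olfr545, counts that are not divided by the GG of each gene. In Damage-seq the same 3 genes had 112 and 97, 162 and 135, and 112 and 102 reads on TS and NTS.

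The same arrangement was seen in other places. Olfr99 lies 4.56 kb beyond H2-M3 on the other strand than Olfr755-ps1, and had 13 TS and 608 NTS reads (log2 TS/NTS -5.25 ± 0.80, adjusted p = 0.000194). Olfr692, 1.86 kb beyond Fam160a2 and chosen after its values were seen, had 7 TS and 414 NTS reads (adjusted p = 0.00015). The pseudogenes Vmn1r-ps145, beyond Ppp2r1a, and Olfr756-ps1, beyond H2-M3, had 224 and 147 NTS reads and none on the TS. Vmn2r-ps89 lies within the ceramide synthase gene Cers4 on the opposite strand and had 6 TS and 900 NTS reads, of which 338 and 210 NTS reads were in lung (adjusted p = 0.000129). Vmn2r-ps3, with 1 TS and 245 NTS reads, was placed differently, since its nearest expressed gene began 88.3 kb away on the same strand. It was not alone in this. By neighbours in lung, 4 of the 34 members called with a lower TS lay under 20 kb before the 5′ end of an expressed gene on the same strand. Another 5 lay so at 20 to 100 kb.

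**Figure D3:**
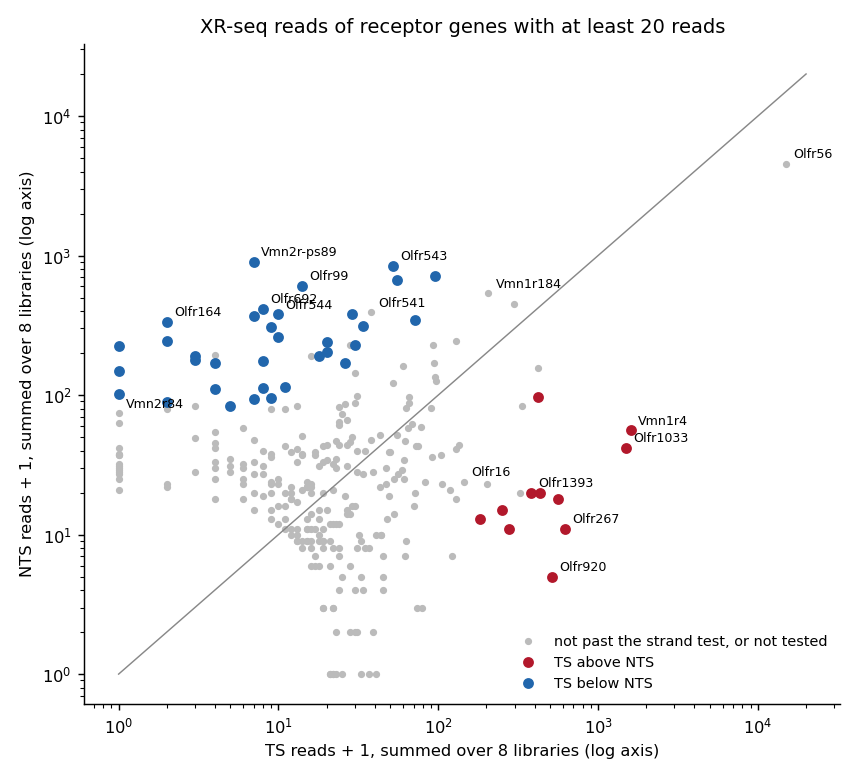
XR-seq reads of the 301 receptor genes with at least 20 reads, TS reads plus 1 on the horizontal and NTS reads plus 1 on the vertical axis, both summed over 8 libraries on log axes, with a line where they are equal. The 11 genes called with a higher TS lie to the lower right and the 34 called with a lower TS to the upper left, and Olfr56 is alone at the upper right.

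To describe this for all members, each was placed by its distance to the nearest gene of at least 1 RPKM outside the families in the same organ, a split chosen after the data were seen. Within 20 kb there were 64 members for kidney, 47 for liver, 70 for lung and 78 for spleen. Their XR-seq reads per GG were 1.11, 0.987, 1.57 and 1.17 times those of silent genes. At 100 to 500 kb the ratio was 0.108, 0.0849, 0.0714 and 0.20, and at more than 500 kb 0.0821, 0.171, 0.0821 and 0.111. The liver value beyond 500 kb includes Olfr1033, which held 1143 of the 2791 reads there. A member beyond 500 kb had a median of 0 reads in kidney, lung and spleen and of 1.5 in liver. The Damage-seq level varied less with distance, from 0.978 times silent genes within 20 kb to 0.942 beyond 500 kb in liver and from 0.952 to 0.703 in kidney. What else differs between near and distant members was not tested.

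The strand of the reads went with the side of the neighbour. For members within 20 kb beyond the 3′ end of an expressed gene, XR-seq reads per GG on the strand that continues that gene's template strand were 9.59 times those on the other strand in kidney, 12.4 times in liver, 8.52 in spleen and 8.82 in lung. This held in 19 of 21 members with at least 10 reads in kidney, 19 of 21 in liver, 23 of 28 in lung and 22 of 28 in spleen. By library the ratio was 17.1 and 9.55 in liver, 11.8 and 6.49 in lung, 8.71 and 8.46 in spleen and 5.80 in kidney replicate 2, while kidney replicate 1 had no read on the other strand. No single member held more than 17.5% of these reads in any organ. For members within 20 kb before the 5′ end the ratio was 0.302 (kidney), 0.394 (liver), 0.252 (lung) and 0.758 (spleen), and Vmn1r4 held 42.7% of the reads in liver. By library it ranged from 0.235 to 0.445 over the other organs but was 1.25 and 0.641 in the spleen libraries, so that the reads lay mainly on the opposite strand in every library except spleen replicate 1. The template strand was the higher one in 6 of 20 members with at least 10 reads in kidney, 6 of 19 in liver, 8 of 25 in lung and 9 of 20 in spleen. In Damage-seq the ratio on the 3′ side was 1.05 (kidney), 1.06 (liver), 1.00 (lung) and 0.959 (spleen). Of the 34 members called with a lower TS, 11 lay within 20 kb beyond a 3′ end on the opposite strand in lung and 1 on the same strand. Of the 11 called with a higher TS, 5 lay there on the same strand and 0 on the opposite strand. Of the 254 members tested and not called, 14 lay there on the opposite strand and 0 on the same strand. In kidney, liver and spleen the opposite-strand count was 10, 8 and 11 of the 34, so most of the 34 lay elsewhere. The same-strand count was 5, 4 and 5 of the 11 with a higher TS. Of the 254 not called, 12, 6 and 16 were on the opposite strand and 2 on the same strand in each of these organs. The part of the neighbour in these reads was not tested.

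**Figure D4:**
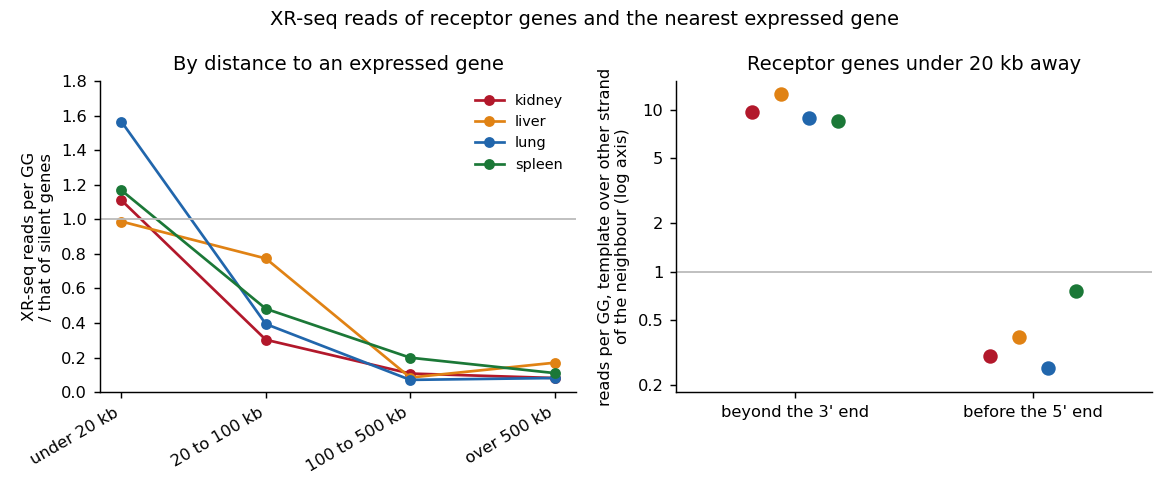
Left, XR-seq reads per GG of receptor genes divided by those of silent genes, by distance to the nearest gene of at least 1 RPKM, 1 line per organ. The liver point at 20 to 100 kb includes Olfr56. Right, for receptor genes within 20 kb, reads per GG on the neighbour's template strand over its other strand (log axis), which is 8.52 to 12.4 beyond the 3′ end and 0.252 to 0.758 before the 5′ end.

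A few members had XR-seq reads mainly in 1 organ or in a pair of organs. The organ test called 25 of 299 members (8.36%), against 53.8% of all genes and 15.3% of protein-coding genes silent in all organs. Without the 3 clumped libraries, when kidney, lung and spleen had 1 library each and were assumed to vary like liver, it called 83. The count was 38 without kidney replicate 1, 73 without kidney replicate 2 and 10 without either liver library. Olfr541 had 255 and 167 reads in liver, 0 and 6 in kidney and none in lung or spleen (adjusted p = 0.000382). The nearest expressed gene in liver was Cyp2e1, a cytochrome P450 gene, 58.1 kb away. Vmn1r184 had 377 and 321 reads in liver, 1 and 26 in kidney, 14 and 1 in lung and none in spleen (adjusted p = 0.000355). It lay 36.5 kb from Cyp2a4, another cytochrome P450 gene. Olfr16, chosen after its values were seen, had 86 and 79 reads in liver, 1 in kidney and none in lung or spleen (adjusted p = 0.00323), and its neighbour in liver, at 55.4 kb, was Apcs, which encodes serum amyloid P. In these 3 genes both liver libraries were above all others, and whether the neighbour has a part in it was not tested.

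In spleen, Vmn2r84 had 27 and 45 reads, all on the NTS, and 1 read in the other 6 libraries together (adjusted p = 0.00854). Olfr164, chosen after its values were seen, had 59 and 251 NTS reads in spleen and no TS read there, against at most 10 reads in any other library (adjusted p = 0.00119). It lay 23.2 kb from Iglv2, a variable segment of the immunoglobulin lambda locus. RNA of both genes was also highest in spleen, at 0.160 to 0.247 RPKM for Vmn2r84 and 0.311 to 0.625 for Olfr164. The highest library of any other organ was at 0.0165 RPKM for Vmn2r84 and 0.0450 for Olfr164. Olfr1443 had 46 and 55 reads in kidney, 91 and 30 in liver, none in spleen and 1 in lung (adjusted p = 0.00353), and lay 11.9 kb from Keg1, a gene of glycine conjugation, in kidney and liver. In Damage-seq these 6 genes had 77 to 546 reads. The XR-seq strand test, which averages over organs, could not place most of these members, since other organs had no reads.

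The RNA-seq libraries held few reads of these genes. According to the paper, the RNA was selected for poly-A tails, so transcripts without such a tail were not measured. Members took 299 to 7535 reads per library, or 0.00117 to 0.00553% of the reads on genes. Between 5.87 and 25.9% of members had any read, against 69.2 to 86.3% of other genes. In the 4 libraries of an organ together, 677 members had no read in kidney, 623 in liver, 509 in spleen and 503 in lung. At least 0.1 RPKM on average was reached by 16 members in kidney, 7 in liver, 27 in spleen and 13 in lung, and 1 RPKM by 0, 1, 4 and 2 in the same order. The 5 members that reached 1 RPKM in some organ were Olfr1033, Olfr56, Olfr99, Olfr755-ps1 and Olfr754-ps1. The libraries do not mark strand, so RNA from a gene and from a transcript across it on the other strand cannot be told apart.

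Olfr1033 was the member with most reads in 15 of 16 libraries. It was at 0.255 and 0.422 RPKM in kidney controls and 1.25 and 0.964 after cisplatin, and at 4.22 and 1.24 in liver controls and 2.63 and 0.875 after cisplatin. Lung was at 2.73 and 2.83 in controls and 2.31 and 3.01 after cisplatin, and spleen at 2.09 and 2.12 against 1.44 and 2.53. Kidney was the lowest organ, and its control and cisplatin libraries did not overlap, but the change of 1.69 ± 0.58 on the log2 scale did not pass (adjusted p = 0.203). Olfr99 was highest in spleen, at 2.54 and 2.29 RPKM in controls and 1.97 and 2.60 after cisplatin, against at most 0.360 in any library of the other organs. The pseudogenes Olfr755-ps1 and Olfr754-ps1 had spleen means of 1.65 and 1.27 RPKM and means of at most 0.173 in any other organ. Olfr99, Olfr755-ps1 and Olfr754-ps1 lie 4.56, 2.16 and 19.3 kb from H2-M3, which was at 58.5 RPKM in spleen, 16.5 in lung, 3.05 in liver and 2.89 in kidney.

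No receptor gene passed the test of cisplatin against control, in which the 2 control libraries of lung and of spleen were summed to 1 sample each because they differed by less than 3 times the sampling variance. Of 70 members with enough reads, edgeR's test against a log2 change of 0.4 called 0 in kidney (all genes: 3.12%), 0 in liver (2.71%), 0 in lung (0.372%) and 0 in spleen (0.136%). At an unadjusted p under 0.05 there were 10, 2, 6 and 1 members, and DESeq2 called 0 in each organ. The median log2 change of the members was 0.20 in lung, against 0.01 over all genes, and 0.00 in the other organs. Olfr920 came nearest in liver. Its RPKM was 0.0171 and 0.0253 in liver controls and 0.131 and 0.0797 after cisplatin, 0.215 and 0.246 against 0.896 and 1.04 in lung, 0.0816 and 0.0668 against 0.146 and 0.223 in kidney, and 0.0995 and 0.175 against 0.371 and 0.299 in spleen. Both cisplatin libraries were above both controls in every organ. The log2 change was 2.23 ± 0.54 in liver (adjusted p = 0.066), 2.02 ± 0.55 in lung (0.236), 1.44 ± 0.47 in kidney (0.199) and 1.1 ± 0.53 in spleen (1.00). Olfr56 in kidney was at 0.0456 and 0.036 RPKM in controls and 0.268 and 0.194 after cisplatin, a log2 difference of 2.55 ± 0.75 (adjusted p = 0.118). These calls depended on how the lung and spleen controls were counted, since all organs share 1 estimate of the spread. With each library as a replicate and all organs in 1 fit, Olfr920 rose in liver (adjusted p = 0.028) and lung (adjusted p = 0.0157) and Olfr56 rose in kidney (adjusted p = 0.0476). In lung, Olfr49, chosen after its values were seen, then also rose (log2 change 4.40, adjusted p = 0.0465) and Olfr558 fell (-3.26, adjusted p = 0.048). With each organ fitted alone, the same 3 members were called in lung, and 0 were called in kidney, liver or spleen.

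**Figure D5:**
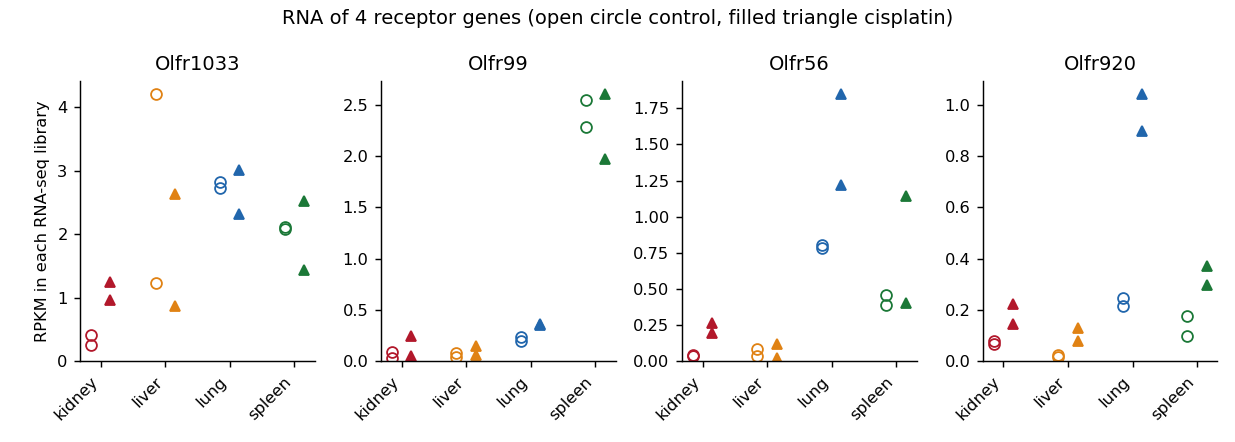
RPKM of Olfr1033, Olfr99, Olfr56 and Olfr920 in each of 16 RNA-seq libraries by organ, with open circles for control and filled triangles for cisplatin libraries, each panel on its own axis from 0. Olfr99 is at 1.97 to 2.60 RPKM in spleen and at most 0.360 elsewhere, and the cisplatin libraries of Olfr920 lie above the controls in every organ.

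Receptors known outside the nose were also low in these organs. Mean RPKM over an organ was at most 0.0127 for Olfr78, 0.005 for Olfr691, 0.0282 for Olfr90 and 0.0344 for Olfr544. Olfr558, a receptor of branched short fatty acids, reached 0.274 RPKM in kidney, with 0.306 and 0.245 in controls and 0.168 and 0.376 after cisplatin. Olfr1393 reached 0.320 in kidney, with 0.155 and 0.109 in controls and 0.660 and 0.355 after cisplatin, a log2 change of 2.00 ± 0.71 that did not pass (adjusted p = 0.218). Olfr78 had 84 XR-seq reads, 37 on the TS and 47 on the NTS, and 588 Damage-seq reads, 319 and 269. Olfr691, Olfr90 and Olfr558 had 89, 56 and 145 XR-seq reads. None of these 4 passed the XR-seq strand test (adjusted p = 0.66, 0.138, 1.00 and 1.00 for Olfr78, Olfr691, Olfr90 and Olfr558).

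The other genes of the olfactory pathway were split between shared signalling genes and genes of the sensory neuron. Of 13 measured genes of odorant signal transduction, 3 reached 1 RPKM in kidney and liver, 6 in spleen and 7 in lung, led by the G protein subunit gene Gnb1 at 24.6 to 141 RPKM. Their summed XR-seq TS/NTS per GG was 8.03 in kidney, 4.50 in liver, 6.13 in spleen and 11.3 in lung. None of 12 tested changed after cisplatin in any organ. Of 9 genes that act in receptor gene choice, 6 reached 1 RPKM in each organ. Ddit3, which encodes the stress factor CHOP, rose in kidney (log2 change 2.28, adjusted p = 0.00237), Ebf1, a B-cell and olfactory transcription factor, fell in lung (-2.76, adjusted p = 0.0498), and none of the 9 changed in liver or spleen. Beside Ebf1 in lung, the B-cell gene Cd79a had a log2 change of -2.01 (adjusted p = 0.199) and the B-cell gene Ms4a1 one of -1.97 (adjusted p = 0.0687). The T-cell gene Cd3e was at -2.02 (adjusted p = 0.289) and the globin gene Hba-a1 at -1.10, which did not pass either. The part of such cells in the fall of Ebf1 was not tested. None of the 5 kidney, 5 liver and 5 lung markers changed after cisplatin in any organ. In bulk samples, fewer cells of a type and less RNA per cell cannot be told apart.

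Measured genes specific to the olfactory sensory neuron were at or near 0 with 1 exception. Omp, a main marker of this neuron, was not measured. Gng13, Stoml3, Cnga4 and Rtp1 had means of at most 0.0895 RPKM in every organ. Cnga2, the olfactory cyclic nucleotide channel, was at 0 in kidney, liver and spleen but at 1.13 RPKM in lung. The summed level of the 7 measured markers was 1.15 to 1.33 RPKM in kidney libraries, 0.460 to 0.566 in liver, 3.21 to 4.50 in lung and 4.15 to 4.55 in spleen. It came mostly from Adcy3 and Gnal, which other cells also express, though in lung Cnga2 was above Gnal (0.913). None of the 5 tested markers changed after cisplatin. The lowest and highest sum of the 2 measured vomeronasal markers, Gng8 and Calr4, was 0.0271 and 1.53 RPKM over all libraries. Trpc2 and Omp, also on that list, were not measured. None of the 4 vomeronasal transduction genes and neither of the 2 tested receptor trafficking genes changed after cisplatin. Reep1, a trafficking gene, was at 4.74 RPKM in lung and at most 0.777 elsewhere. Of 24 measured genes of other chemoreceptor families (Taar, Tas1r, Tas2r and Fpr-rs), none reached 1 RPKM, and 4 were tested with none changed. Their summed XR-seq TS/NTS per GG was 0.720 in kidney, 0.903 in liver, 0.544 in spleen and 0.581 in lung, below 1 in each organ. Their XR-seq reads per GG were, however, 43.4 times those of the members in kidney, 37.7 in liver, 15.7 in spleen and 21.8 in lung. What lies behind this difference was not tested.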

How the data were processed

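The authors trimmed reads with cutadapt, aligned Damage-seq and XR-seq reads with BWA (build mm10), took out duplicates (Picard), kept mapping quality above 20 and reads with a GG at the expected place (for XR-seq, reads of 21 to 31 bases with a GG 5 to 8 bases before the 3′ end), and counted them on TS and NTS of Ensembl genes. RNA-seq reads were aligned with STAR and counted with FeatureCounts. The deposited values are counts per gene and library, without normalization. The libraries held 1571167 to 6441367 (Damage-seq), 10658675 to 59779770 (XR-seq) and 15612743 to 162268216 (RNA-seq) reads on genes, and 18 gene names without a position were left out of DNA values. The submitters once corrected the RNA-seq labels of spleen and lung, and the corrected ones were used.

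Samples were grouped by organ and treatment from the labels. The members and gene lists were chosen with earlier results of these data known. GG were counted in the RefSeq sequence of GRCm38. A GG was taken as unique when the 27 bases around it (XR-seq) or the 50 bases after it (Damage-seq) occurred once. Tests used edgeR 4.0.16 in R 4.3.3 (quasi-likelihood, Benjamini-Hochberg over all genes, adjusted p under 0.05). DNA tests took genes with at least 20 reads, at least 10 GG on either strand and under 100000 bp. The strand test had offsets for library size and GG, no TMM and the library as a block, and averaged the 4 organs. The organ test compared summed strands after TMM. The RNA test, after TMM and edgeR's default filter on low counts, was against a log2 change of 0.4, with all organs fitted together. Lung controls and spleen controls differed by less than 3 times sampling variance (2.75 and 2.98), so each pair was summed and counted as 1 sample in that test. This limit was set for RNA-seq only, and the Damage-seq pairs, at 1.43 to 3.11, were kept as 2 libraries. A standard error above 10 was taken as unusable. RPKM used the summed exon length of a gene, with overlapping exons counted once. The study's expression criterion for genes was not applied, since it would remove the members. The fits were tested on simulated data. DESeq2 1.42.0, other scalings, filters, overlaps, blocks and left-out libraries were alternatives.

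Named members were the 4 with most RPKM per organ, any called after cisplatin, the 4 largest and 4 smallest log2 TS/NTS among those called per assay, the 4 with most XR-seq reads per GG, the 4 with the largest organ range in XR-seq, and 6 receptors known outside the nose, others being marked in the text. The lists were organ markers, sensory neuron markers (olfactory and vomeronasal), odorant and vomeronasal transduction, receptor trafficking, receptor gene choice and other chemoreceptors. Of the organ markers and of the shared fragments, 1 each is not reported here.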

Additional observations from a re-analysis of the deposited data

Results flagged for a closer look

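The strand ratio of Damage-seq differed between organs in 1 receptor gene, Olfr1043 (chromosome 2, 86161890 to 86167522, a gene of 5633 bp), by edgeR's test of the difference between organs (adjusted p = 0.0163). TS and NTS reads were 5 and 4 in kidney replicate 1 and 8 and 6 in replicate 2. In liver they were 10 and 3, and 7 and 1. In lung they were 4 and 14, and 0 and 15, and in spleen 4 and 0, and 4 and 1. The TS thus had more reads in all kidney, liver and spleen libraries and fewer in both lung libraries. The log2 TS/NTS was 0.10 in kidney, 1.81 in liver, 2.63 in spleen and -3.08 in lung, with a mean over organs of 0.36 (adjusted p = 0.701). No library had more than 19 reads on this gene, and 1 call among 861 members is below the 6.47% of all genes called.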

How the results depend on the processing

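Of 188 alternatives over 16 results, 143 stayed within 1.5 times the count or within 1 SD of the value, and 45 moved. Low counts limit the XR-seq results, with 619 of 920 members under 20 reads (Damage-seq: 57), and 69.7% of the members' GG lay in 27-base sequences that occur once. The members called in the Damage-seq strand test were 11 with DESeq2 and 22 to 58 with each library left out, and in the XR-seq strand test 25 to 47. The Damage-seq organ test called 77 with library sizes alone, 34 with DESeq2's likelihood-ratio test and 22 to 222 with each library left out. The XR-seq organ test called 83 without the 3 clumped libraries, 42 with DESeq2's likelihood-ratio test and 10 to 73 with each library left out. The strand difference between organs in Damage-seq was called in 2 members when genes of any length were taken. Kidney against the other organs called 134 members as lower with library sizes alone and 31 to 286 with each library left out, and liver 5 as higher and 0 to 29. After cisplatin, RNA-seq called 1 member in kidney, Olfr56, without a filter or with each library as a replicate in the fit of all organs. It called 1, Olfr920, in liver with each library as a replicate in that fit or with the test against 0. With kidney or liver fitted alone it called 0. It called 3 in lung (Olfr920, Olfr49 and Olfr558) with each library as a replicate, in the fit of all organs or of lung alone.

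The summed Damage-seq strand ratio (0.949 over 8 libraries) was 0.977 from reads without GG. The summed XR-seq ratio (1.16) was 0.515 as the median over members, 0.690 without overlapping genes, 0.740 without the 10 members with most reads, 0.725 for members under 0.1 RPKM and 0.769 without Olfr56. The XR-seq level against other genes (0.0336) was 0.0228 without overlapping genes, 0.406 against silent genes, 0.0252 against zinc finger (Zfp) genes, 0.0425 per unique GG and 0.0236 without Olfr56. The alternatives without the clumped libraries, without Olfr56, per unique GG, for the strand difference and for single organs were chosen after seeing the data.

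Same-numbered libraries were not taken as pairs, since the labels tie them to no shared animal or day and not every correlation of their deviations was over 0.1. The correlations were 0.650 (kidney), 0.523 (liver), 0.242 (spleen) and 0.0882 (lung) in RNA-seq, -0.485 to 0.452 in Damage-seq and -0.168 to 0.145 in XR-seq. With a replicate block the strand tests called 35 (Damage-seq) and 36 (XR-seq) members, the organ tests 177 and 21, and RNA-seq, with each library as a replicate, 3 in kidney (Olfr1033, Olfr56 and Olfr1372-ps1), 0 in liver, 1 in lung (Olfr920) and 0 in spleen.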
